A study of Homo sapiens with 18 samples.

Results

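The complement and acute phase genes described here were 37 genes for proteins of blood plasma or the cell surface. They were listed by gene symbol, with earlier results of these data known. All 37 had a feature annotated to a single gene among the 20546 features with a gene symbol, out of 32321 features on the array. Where a gene had several such features, which was so for 3 genes (C2, CFB and SAA2), the brightest on average was used. By role they comprised 3 lectin pathway genes, 3 genes for classical pathway proteases and their inhibitor, 4 for C3 and convertase components, 7 of the terminal pathway, 8 regulators and 12 acute phase proteins.

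The cells were HepG2, an established human hepatocellular carcinoma line. Clones stably carrying a plasmid for thyroid hormone receptor TRα1, for TRβ1 or an empty plasmid had been mixed into 1 pool per construct, with 6, 12 and 11 clones; they are called TRα1, TRβ1 and control cells. All clones had gone through selection with G418. Pools were exposed to T3 (triiodothyronine, the active thyroid hormone) at 100 nM or to its ethanol carrier, the vehicle, for 6 h in DMEM with 10% hormone-stripped fetal bovine serum, and 3 independent biological repeats per group gave 18 arrays in 6 groups. The title names transcriptional targets of the TRα1 and TRβ1 isoforms as the subject. Because each construct was represented by 1 pool, the receptor, the clones in the pool and the amount of receptor cannot be told apart.

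Complement is a cascade of plasma proteases. The classical pathway runs through the proteases C1r and C1s, and the lectin pathway through mannose-binding lectin and its proteases MASP1 and MASP2. Both lead to cleavage of C3 and C5 and assembly of C6 to C9 into the membrane attack complex. Soluble and membrane-bound inhibitors act at each step. The acute phase proteins are plasma proteins whose hepatic output changes in inflammation, driven mainly by interleukin-6 and interleukin-1 through STAT3 and C/EBP factors. T3 acts through TRα and TRβ, nuclear receptors that bind DNA with or without hormone.

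Levels are log2 values after RMA, so a difference of 1 is a doubling. Probe sets differ in brightness, and levels of different genes are not compared. The array medians lay between 5.31 and 5.49, and 8 of the 37 genes had a mean below the lowest of these: C6, C7, C9, MASP2, CRP, SAA1, SAA2 and LBP. The arrays carry no detection call here, so whether these 8 transcripts stood above background was not tested. All 14 measured markers of hepatocytes and HepG2 lay above the array median in each group, whereas 2 of 12 macrophage, 2 of 8 leukocyte and 1 of 8 endothelial markers did. Of the cholangiocyte markers 5 of 6 lay above it, with list means from 7.81 to 8.14 over the arrays, and of the stellate cell and fibroblast markers 4 or 5 of 9, with list means from 4.93 to 5.21. The list means of the macrophage markers ranged from 4.68 to 4.95 over the arrays, those of the leukocyte markers from 4.82 to 5.17, and PTPRC (CD45) from 2.27 to 2.86. THRA, which encodes TRα, was higher in TRα1 cells than in control cells by 0.95 ± 0.13 (SE) on T3 (limma with the replicate block, adjusted p = 0.000889; without the block 0.00392), and by 0.44 ± 0.13 on vehicle (adjusted p = 0.128). THRB in TRβ1 cells exceeded the control pool by 0.30 ± 0.11 on vehicle and 0.35 ± 0.11 on T3, neither of which passed the test (adjusted p = 0.332 and 0.218).

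Component 1 held 49.2% of the variance, and its relation to the replicate number was not tested. Same-numbered arrays of different groups deviated together after group means were removed (median correlation 0.597). The tests therefore compared arrays within replicate number, by a block in the limma fit, with Benjamini-Hochberg adjustment over all 20546 features and a threshold of 0.05. A feature that passed is called. The 13 contrasts gave 29 calls among the 37 genes, and 6 of these 29 also passed without the block. The adjusted p without the block is therefore given beside each call of the 37 genes as the unblocked adjusted p. In bulk RNA, fewer cells that express a gene and less RNA per cell cannot be told apart.

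T3 raised 2 of the 3 lectin pathway genes. MBL2, which encodes mannose-binding lectin, the pattern recognition molecule that opens this pathway, and MASP1, which encodes one of its proteases, were higher on T3 in TRα1 and TRβ1 cells. Averaged over the pools, CD59, the membrane protein that blocks the final attack complex, was also higher. The other 34 genes passed no T3 test. With the block, 0.667% of all features were called for T3 in TRα1 cells (0.584% higher), 0.477% in TRβ1 cells (0.404% higher), 0.0973% in control cells and 1.69% for the mean of the 3 pools (1.36% higher). Among the 37 genes the counts were 2, 2, 0 and 3, all of them higher. In control cells 2 of the 37 genes, MBL2 and CD59, had an unadjusted p under 0.05, as had 5.95% of features.

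**Figure D1:**
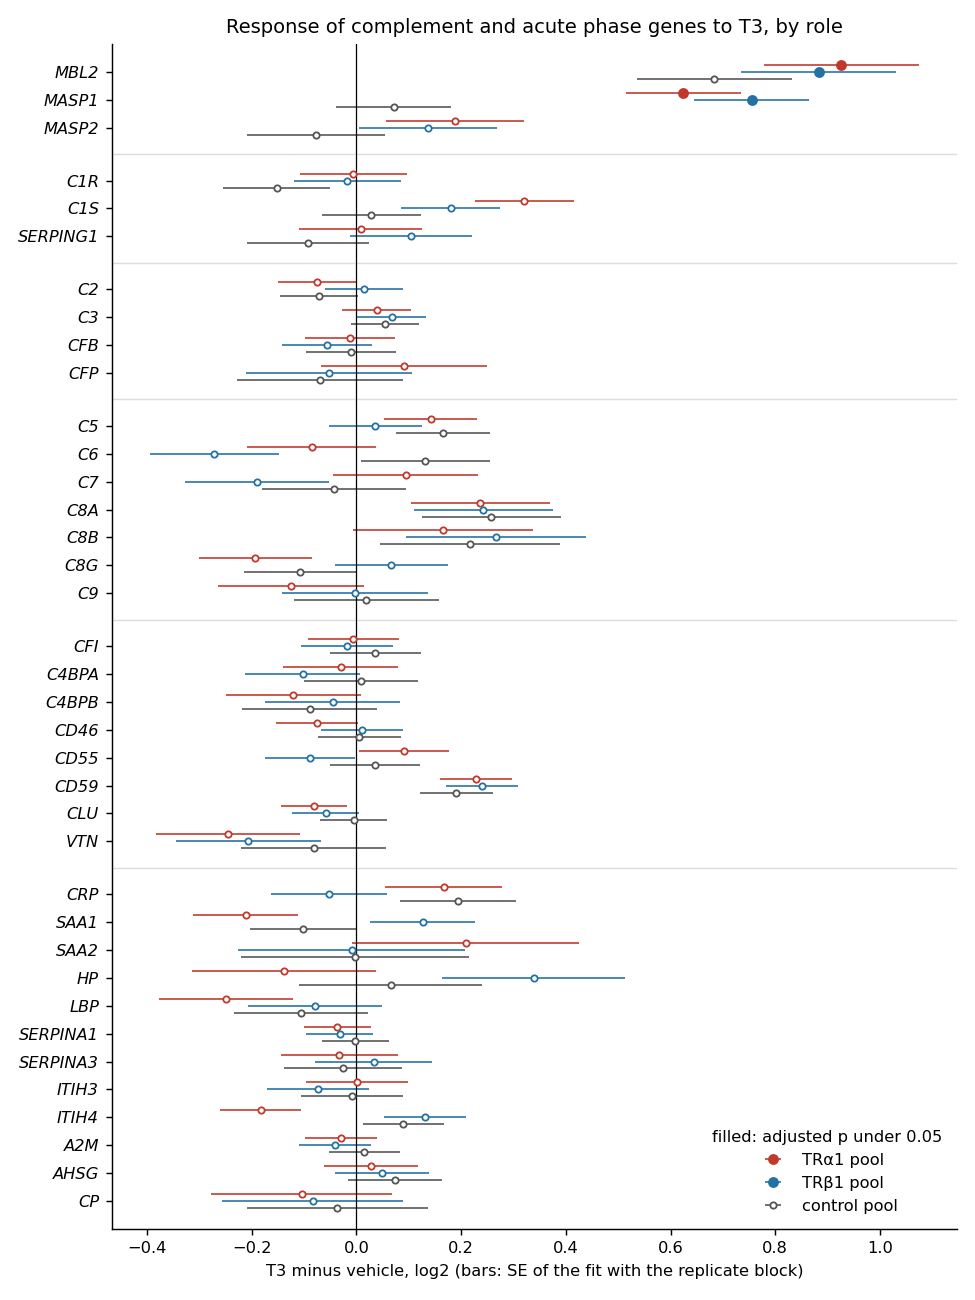
Difference between T3 and vehicle on the log2 scale for each of the 37 genes, grouped by role, in the TRα1, TRβ1 and control pools. Points are estimates with the replicate block, bars their SE, and filled points have an adjusted p under 0.05. MBL2 and MASP1 carry the filled points, and most other genes lie close to 0.

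MBL2 stood at 6.45, 5.64 and 5.90 on vehicle in TRα1 cells (numbers 1, 2 and 3) and at 7.17, 6.78 and 6.82 on T3. In TRβ1 cells it went from 6.30, 5.84 and 5.21 to 7.08, 6.52 and 6.40, and in control cells from 6.32, 6.08 and 6.02 to 6.95, 6.87 and 6.66. Every T3 array exceeded every vehicle array of its pool, as for 2.64% of features in TRα1, 2.4% in TRβ1 and 2.18% in control cells. The rise was 0.93 ± 0.15 (SE, n = 3 pairs, 1.90-fold) in TRα1 cells (limma with the replicate block, adjusted p = 0.00498; unblocked adjusted p = 0.489), and 0.88 ± 0.15 (1.84-fold) in TRβ1 cells (adjusted p = 0.00938; unblocked adjusted p = 0.834). In control cells the difference was 0.68 ± 0.15 with an adjusted p of 0.186. Over the 3 pools the mean rise was 0.83 ± 0.09 (1.78-fold, adjusted p = 3.67e-05), and it passed without the block as well (unblocked adjusted p = 0.0122). The responses with and without a receptor plasmid did not separate: TRα1 minus control was 0.24, with a 95% interval from -0.20 to 0.69, and TRβ1 minus control was 0.20, from -0.25 to 0.65.

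MASP1 had vehicle values of 5.51, 5.57 and 5.47 in TRα1 cells and T3 values of 6.37, 6.21 and 5.85. In TRβ1 cells it went from 5.14, 5.50 and 5.04 to 6.10, 5.98 and 5.86, and in control cells from 5.41, 5.46 and 5.46 to 5.45, 5.61 and 5.49. The MASP1 vehicle values and control values lay near the array medians (5.31 to 5.49), with a TRβ1 vehicle mean of 5.23. Whether they stood above background was not tested. The T3 arrays of both receptor pools were the 6 highest of the 18, and in control cells the treatments overlapped. The rise was 0.62 ± 0.11 (SE, 1.54-fold) in TRα1 cells (adjusted p = 0.0106; unblocked adjusted p = 0.144), 0.76 ± 0.11 (1.69-fold) in TRβ1 cells (adjusted p = 0.00333; unblocked adjusted p = 0.0544) and 0.07 ± 0.11 in control cells (adjusted p = 0.963). The mean over pools was 0.48 ± 0.06 (adjusted p = 0.000354; unblocked adjusted p = 0.00632). The call in TRα1 cells was lost when any of 4 arrays was left out, namely numbers 1 and 2 of that pool on vehicle or on T3 (highest adjusted p = 0.0789). The MBL2 call in TRβ1 cells was lost without that pool's T3 array number 1 (adjusted p = 0.0870).

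The difference between the MASP1 responses was 0.55 ± 0.16 for TRα1 minus control (95% interval 0.22 to 0.88) and 0.68 ± 0.16 for TRβ1 minus control (0.35 to 1.02). Neither passed the adjustment over all features (adjusted p = 0.890 and 0.718), so a dependence of the MASP1 response on the receptor plasmid is not shown. These comparisons share the control arrays. Between the receptor pools the responses differed by 0.13, with an interval from -0.20 to 0.46. None of the 37 genes was called for any difference between responses with the block or without it. The features called were 0.0292% for TRα1 minus control, 0% for TRβ1 minus control and 0% for TRβ1 minus TRα1. At an unadjusted p under 0.05 the counts were 3, 2 and 2 of 37 genes, against 3.75%, 4.06% and 3.01% of features. MASP2, the partner protease that cleaves C4 and C2, moved by 0.19, 0.14 and -0.08 in TRα1, TRβ1 and control cells, and was not called.

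**Figure D2:**
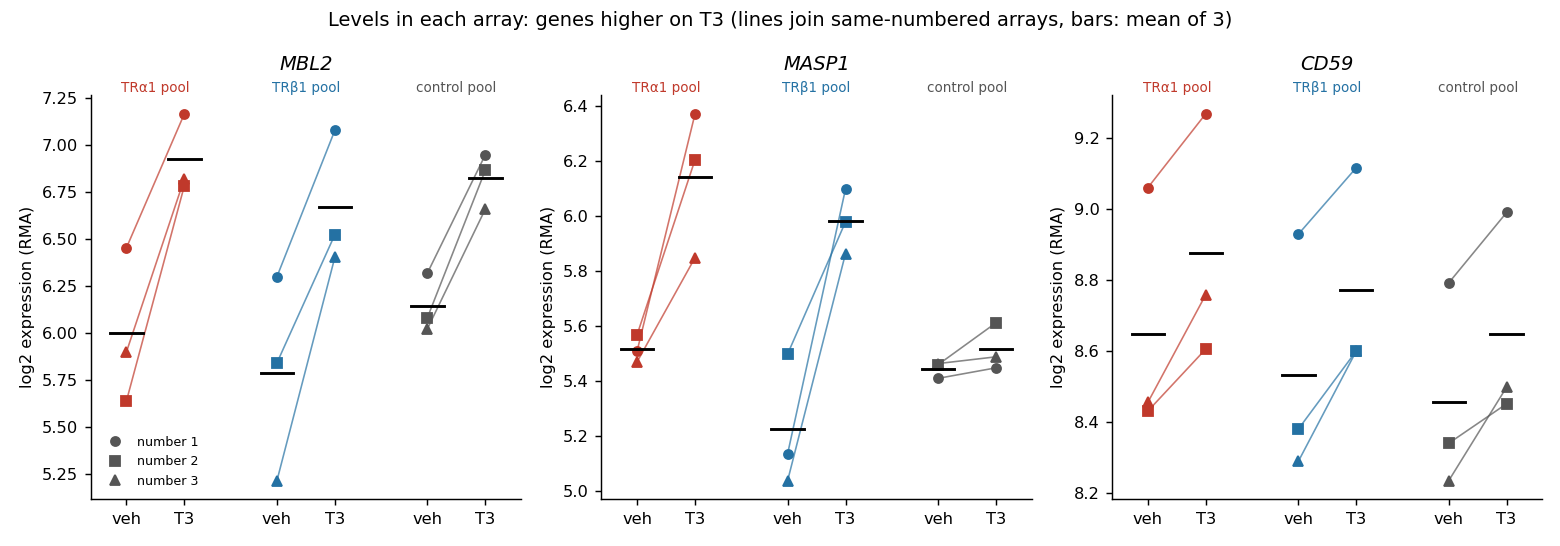
Log2 level of MBL2, MASP1 and CD59 in each of the 18 arrays, by pool and treatment. Lines join the vehicle and T3 arrays of the same replicate number, point shapes mark the number and bars are means of 3 arrays. MBL2 is higher on T3 in all 9 pairs and MASP1 separates by treatment in the TRα1 and TRβ1 pools, while the CD59 pairs shift by less than the gap between number 1 and the others.

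CD59 in TRα1 cells was 9.06, 8.43 and 8.46 on vehicle and 9.27, 8.61 and 8.76 on T3. The corresponding values were 8.93, 8.38 and 8.29 against 9.12, 8.60 and 8.60 in TRβ1 cells, and 8.79, 8.34 and 8.24 against 8.99, 8.45 and 8.50 in control cells. The treatments overlapped in every pool because arrays numbered 1 were higher, but each of the 9 same-numbered pairs was higher on T3. The mean rise was 0.22 ± 0.04 (SE, 1.16-fold, adjusted p = 0.00699). Without the block CD59 was far from passing (unblocked adjusted p = 1.0).

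The 9 pairs were higher on T3 for 4 of the 37 genes, MBL2, MASP1, CD59 and C8A, against 2.04% of features, and lower for C4BPB and VTN, against 1.80% of features. C8A, the alpha subunit of complement component 8, differed by 0.24, 0.24 and 0.26 in TRα1, TRβ1 and control cells (mean 0.25 ± 0.08, adjusted p = 0.175). C8B, its partner subunit and chromosomal neighbour, differed by 0.17, 0.27 and 0.22, without a call. VTN, vitronectin, which blocks membrane insertion of the terminal complex, differed by -0.25, -0.21 and -0.08 (mean -0.18 ± 0.08, adjusted p = 0.446). C4BPB, the beta chain of C4b-binding protein, differed by -0.12, -0.05 and -0.09. C1S, a classical pathway protease, differed by 0.32 ± 0.09 in TRα1 cells, 0.18 ± 0.09 in TRβ1 cells and 0.03 ± 0.09 in control cells, higher on T3 in 8 of 9 pairs and not called (adjusted p = 0.252, 0.887 and 0.988). Among the other genes without a call, C6 reached -0.27 and HP 0.34 in TRβ1 cells. The 12 acute phase proteins had differences from -0.25 to 0.21 in TRα1 cells, -0.08 to 0.34 in TRβ1 cells and -0.11 to 0.19 in control cells, with no call. C3, the hub of the cascade, differed by 0.04, 0.07 and 0.05. The median response of the 37 genes was -0.01, 0.00 and 0.01, beside -0.02, -0.01 and -0.01 over all features. The sign of the response was the same in all 3 pools for 17 of the 37 genes, and for 35.5% of features.

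Promoter sequences of the genes with a T3 call, and of ITIH4, which differed between pools, are shown because TRs bind AGGTCA-type half-sites. C5, C6, C7 and SERPINA3 were also called between pools and had windows, which are not printed. RefSeq windows for GRCh38.p14, from 250 bases before a listed start to 50 after it, were matched by symbol for 26 of the 37 genes, and the 250 bases before the start are printed. C8G, SERPING1, LBP, HP, SAA1, CLU, A2M, SAA2, CP, C1S and C3 had no entry. Capitals mark AGGTCA on either strand, which reads TGACCT on the other. All are on the minus strand, printed 5′ to 3′ in the direction of transcription. MASP1 lies at chr3:187291738-187291987. MBL2 has 2 listed starts, with windows at chr10:52772785-52773034 and chr10:52771653-52771902. CD59 has 4 listed starts, of which the outermost is shown, at chr11:33736480-33736729. ITIH4 lies at chr3:52830673-52830922.
MASP1: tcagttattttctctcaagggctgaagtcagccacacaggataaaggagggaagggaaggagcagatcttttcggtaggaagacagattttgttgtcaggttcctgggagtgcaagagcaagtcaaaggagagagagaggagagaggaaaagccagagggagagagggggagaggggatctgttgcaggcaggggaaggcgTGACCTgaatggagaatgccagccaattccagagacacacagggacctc
MBL2, outer start: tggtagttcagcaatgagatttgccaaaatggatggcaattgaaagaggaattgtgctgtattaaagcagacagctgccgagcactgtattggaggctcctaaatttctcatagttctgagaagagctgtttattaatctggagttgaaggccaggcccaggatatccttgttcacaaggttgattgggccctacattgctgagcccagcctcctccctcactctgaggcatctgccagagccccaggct
MBL2, inner start: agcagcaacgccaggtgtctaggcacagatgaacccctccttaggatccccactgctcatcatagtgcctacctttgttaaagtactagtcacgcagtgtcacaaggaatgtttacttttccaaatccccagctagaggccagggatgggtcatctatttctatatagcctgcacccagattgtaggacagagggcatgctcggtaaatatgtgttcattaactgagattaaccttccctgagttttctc
CD59: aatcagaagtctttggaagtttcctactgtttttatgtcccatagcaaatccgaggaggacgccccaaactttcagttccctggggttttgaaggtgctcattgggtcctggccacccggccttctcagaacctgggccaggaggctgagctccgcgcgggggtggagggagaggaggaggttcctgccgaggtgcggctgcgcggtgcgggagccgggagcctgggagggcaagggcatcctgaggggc
ITIH4: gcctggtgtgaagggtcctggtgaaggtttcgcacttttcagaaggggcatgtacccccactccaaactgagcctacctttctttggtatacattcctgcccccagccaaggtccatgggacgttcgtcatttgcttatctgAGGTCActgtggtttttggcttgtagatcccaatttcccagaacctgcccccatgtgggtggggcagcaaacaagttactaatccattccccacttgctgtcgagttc

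The MASP1 window holds the motif 49 bases before the start, and the ITIH4 window 108 bases before it, while the MBL2 and CD59 windows shown hold none. Among the windows not printed of genes called between pools, those of C7 and SERPINA3 hold it and those of C5 and C6 do not. The search covered the 250 bases before the start. Of all 35116 RefSeq windows, 12.1% hold AGGTCA there on either strand, as do 14 of the 39 windows of the measured genes, from 11 genes. Windows of a gene can overlap, so 1 site can count more than once, as for C4BPB and CD46. The direct repeat of this motif with a spacer of 4 bases is in 0.0142% of all windows and in none of the 39. The letters TTCNNNGAA, a pattern of STAT factors, are in 6.57% of all windows and 10 of the 39, and TTGCNNAA, a pattern of C/EBP factors, in 9.05% and 8 of the 39. Both were searched on both strands, and matches of different patterns may overlap. A match describes letters in the window and shows no binding.

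More of the 37 genes were called between the TRα1 and control pools than for T3 in TRα1 cells. The same held for all features, with 2.07% on vehicle and 2.83% on T3 against 0.667% for T3 in TRα1 cells. TRβ1 against control had 1 call on each treatment, fewer than the 2 for T3 in TRβ1 cells. In TRα1 cells, the classical pathway genes C1S and SERPING1 and the acute phase genes SERPINA3 and ITIH4, 2 of the 12 of that group, were above the control pool with and without T3, and C5 was below it. On vehicle 7 of the 37 genes were called against the control pool, 6 higher (C1S, SERPING1, ITIH4, SERPINA3, HP and C6) and 1 lower (C5), where 2.07% of features were called (1.38% higher, 0.686% lower). On T3 the count was also 7, 6 higher (C1S, SERPING1, SERPINA3, MASP1, C7 and ITIH4) and 1 lower (C5), where 2.83% of features were called (1.82% higher, 1.02% lower). These comparisons share no arrays, but they use the same pools, replicate numbers and fit, with 1 residual variance per feature. Of the 37 genes, 5 were called in both (C1S, SERPING1, C5, SERPINA3 and ITIH4), against 1.40% of features. The TRα1 arrays lay above all control arrays for 8 genes on vehicle and 8 on T3, against 4.58% and 6.48% of features. They lay below all control arrays for 2 and 3 genes, against 3.09% and 3.65% of features.

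SERPING1 encodes C1 inhibitor, the serpin that inactivates C1r, C1s and the MASP proteases. Its level in TRα1 cells was 7.10, 6.73 and 6.72 on vehicle and 7.13, 6.62 and 6.83 on T3. The control pool had 5.84, 5.88 and 5.48 on vehicle and 5.71, 5.82 and 5.39 on T3, and the TRβ1 pool had 6.17, 5.70 and 5.71, then 6.18, 5.96 and 5.75. The 6 arrays of the TRα1 pool were above the other 12. The difference from control was 1.12 ± 0.12 (SE, 2.17-fold) on vehicle (adjusted p = 9.6e-05; unblocked adjusted p = 0.0117) and 1.22 ± 0.12 (2.33-fold) on T3 (adjusted p = 2.34e-05; unblocked adjusted p = 0.00356). TRβ1 minus TRα1 was negative, -0.99 ± 0.12 on vehicle (adjusted p = 0.00118; unblocked adjusted p = 0.124) and -0.89 ± 0.12 on T3 (adjusted p = 0.00235; unblocked adjusted p = 0.176).

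C1S encodes the protease that C1r activates and that cleaves C4 and C2. It stood at 7.35, 6.63 and 6.71 on vehicle and 7.51, 7.03 and 7.11 on T3 in TRα1 cells. In control cells the values were 6.28, 5.90 and 5.86, then 6.29, 5.88 and 5.96, and in TRβ1 cells 6.46, 6.09 and 5.81, then 6.63, 6.28 and 5.99. On each treatment the TRα1 arrays lay above all control arrays. The difference was 0.88 ± 0.09 (SE, 1.84-fold) on vehicle (adjusted p = 0.000111; unblocked adjusted p = 0.197) and 1.18 ± 0.09 (2.26-fold) on T3 (adjusted p = 4.08e-06; unblocked adjusted p = 0.0283). TRβ1 minus TRα1 was -0.78 ± 0.09 on vehicle (adjusted p = 0.00140; unblocked adjusted p = 0.674) and -0.92 ± 0.09 on T3 (adjusted p = 0.000294; unblocked adjusted p = 0.440). C1R, which neighbours C1S on chromosome 12 and encodes the protease upstream of it, differed from control by 0.22 ± 0.10 on vehicle and 0.37 ± 0.10 on T3 (adjusted p = 0.353 and 0.0741), higher in 6 of 6 pairs but not called.

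**Figure D3:**
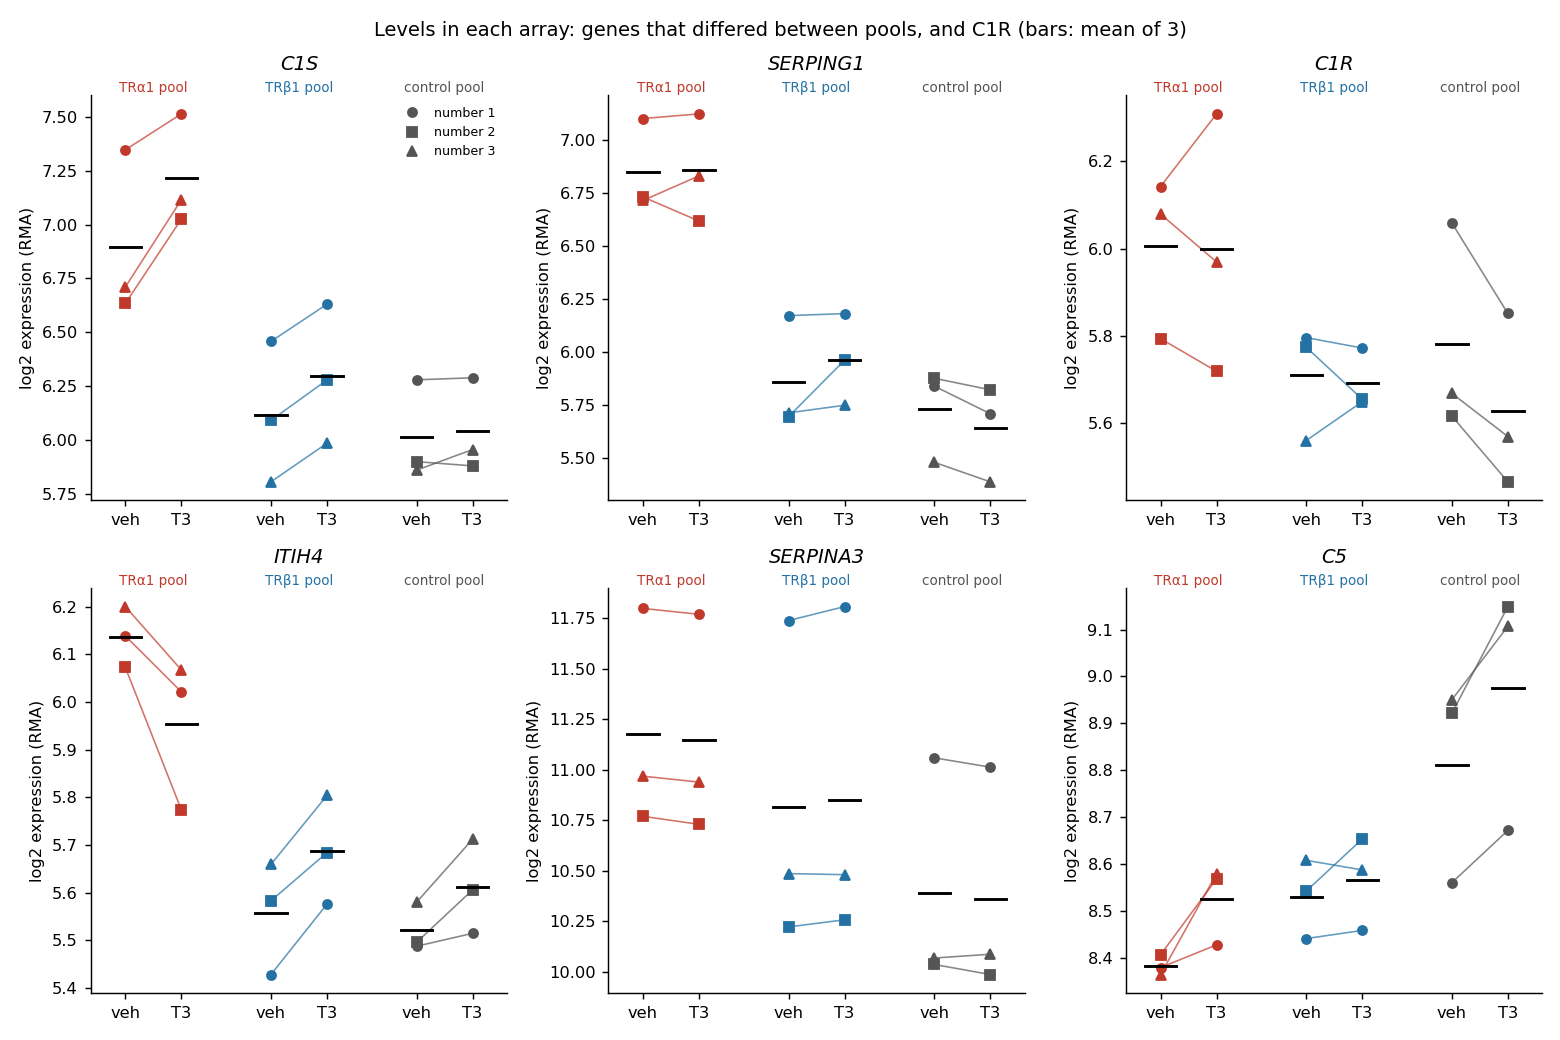
Log2 level of C1S, SERPING1, C1R, ITIH4, SERPINA3 and C5 in each of the 18 arrays, by pool and treatment, with bars at the mean of 3 arrays and lines joining same-numbered arrays. All 6 arrays of the TRα1 pool lie above all control arrays for C1S, SERPING1 and ITIH4. The C5 means of both receptor pools lie below those of the control pool, and the SERPINA3 groups overlap through the arrays numbered 1.

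ITIH4, an inter-alpha-trypsin inhibitor heavy chain and plasma kallikrein substrate, stood at 6.14, 6.07 and 6.20 on vehicle in TRα1 cells against 5.49, 5.50 and 5.58 in control cells and 5.43, 5.58 and 5.66 in TRβ1 cells. On T3 the values were 6.02, 5.77 and 6.07 in TRα1 cells, 5.51, 5.61 and 5.71 in control cells and 5.58, 5.68 and 5.80 in TRβ1 cells. The vehicle groups of the TRα1 and control pools were far apart, and on T3 the gap was narrower but the arrays still did not overlap. TRα1 minus control was 0.62 ± 0.08 (SE, 1.53-fold) on vehicle (adjusted p = 0.000481; unblocked adjusted p = 0.0163) and 0.34 ± 0.08 (1.27-fold) on T3 (adjusted p = 0.0264; unblocked adjusted p = 0.346). TRβ1 minus TRα1 on vehicle was -0.58 ± 0.08 (adjusted p = 0.00247; unblocked adjusted p = 0.118). The T3 call was lost without any of 5 arrays, the 3 control arrays on T3 and numbers 1 and 3 of the TRα1 pool on T3 (highest adjusted p = 0.137). ITIH3, its neighbour on chromosome 3, differed the other way, by -0.24 ± 0.10 on vehicle and -0.23 ± 0.10 on T3, without a call.

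SERPINA3, alpha-1-antichymotrypsin, an inhibitor of neutrophil cathepsin G, stood at 11.80, 10.77 and 10.97 on vehicle in TRα1 cells against 11.06, 10.04 and 10.07 in control cells. On T3 the values were 11.77, 10.73 and 10.94 against 11.01, 9.99 and 10.09. Arrays numbered 1 were the highest in every group, so the pools overlapped although each pair differed by a similar amount. The difference was 0.79 ± 0.11 (SE, 1.73-fold) on vehicle (adjusted p = 0.00117) and 0.78 ± 0.11 on T3 (adjusted p = 0.000934), and neither passed without the block (both unblocked adjusted p = 1.0). In TRβ1 cells the difference from control was 0.43 ± 0.11 on vehicle and 0.49 ± 0.11 on T3, with adjusted p of 0.116 and 0.0578.

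HP, haptoglobin, which binds free haemoglobin, was 10.40, 8.21 and 9.04 on vehicle in TRα1 cells, 9.81, 7.48 and 7.98 in control cells and 9.13, 7.61 and 8.41 in TRβ1 cells. The groups overlapped, and within numbers the TRα1 array was the highest of the 3. TRα1 minus control was 0.79 ± 0.18 (SE, adjusted p = 0.0291; unblocked adjusted p = 1.0), and TRβ1 minus TRα1 was -0.83 ± 0.18 (adjusted p = 0.0480; unblocked adjusted p = 1.0). The first was lost without any of 5 arrays, the 3 TRα1 vehicle arrays and numbers 2 and 3 of the control vehicle arrays (highest adjusted p = 0.150), and the second was kept in 4 of the 18 fits with an array left out. On T3 the HP values were 9.90, 8.19 and 9.14 in TRα1 cells and 9.77, 7.55 and 8.15 in control cells, a difference of 0.59 ± 0.18 that was not called (adjusted p = 0.103).

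Genes of the terminal pathway moved in both directions. C5, whose cleavage releases C5a and starts the attack complex, was 8.38, 8.41 and 8.36 on vehicle and 8.43, 8.57 and 8.58 on T3 in TRα1 cells, against 8.56, 8.92 and 8.95 and then 8.67, 9.15 and 9.11 in control cells. The TRβ1 pool had 8.44, 8.54 and 8.61, then 8.46, 8.65 and 8.59. On both treatments the TRα1 arrays lay below all control arrays. TRα1 minus control was -0.43 ± 0.09 (SE) on vehicle (adjusted p = 0.0209; unblocked adjusted p = 0.459) and -0.45 ± 0.09 on T3 (adjusted p = 0.0112; unblocked adjusted p = 0.278). Each of these calls was lost when number 2 or 3 of either group was left out (highest adjusted p = 0.116 and 0.0814). TRβ1 minus control on T3 was -0.41 ± 0.09 (adjusted p = 0.0443; unblocked adjusted p = 0.895), a call kept in 3 of the 18 fits with an array left out.

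C6 and C7, which add to C5b in turn, were below the array median. C6 on vehicle was 4.82, 4.85 and 4.91 in TRα1 cells, 5.07, 4.80 and 4.75 in TRβ1 cells and 4.38, 4.43 and 4.03 in control cells. Both receptor pools lay above control without overlap, by 0.58 ± 0.12 (SE) for TRα1 (adjusted p = 0.0235; unblocked adjusted p = 0.172) and 0.59 ± 0.12 for TRβ1 (adjusted p = 0.0397; unblocked adjusted p = 0.299), with the control arrays shared. On vehicle 4.58% of features were above control without overlap in TRα1 cells and 3.69% in TRβ1 cells. The TRα1 call was lost without any of 4 arrays, TRα1 vehicle numbers 2 and 3 and control vehicle numbers 1 and 3, and the TRβ1 call was kept in 7 of the 18 fits with an array left out. C7 on T3 was 3.64, 3.89 and 3.86 in TRα1 cells and 3.35, 3.18 and 3.08 in control cells, also without overlap (6.48% of features). The difference was 0.59 ± 0.14 (adjusted p = 0.0299; unblocked adjusted p = 0.111), and it was lost without number 2 or 3 of either group (highest adjusted p = 0.147). MASP1 on T3 was above control by 0.63 ± 0.11 in TRα1 cells (adjusted p = 0.00497; unblocked adjusted p = 0.0617), which uses the same TRα1 arrays as its T3 response, and by 0.46 ± 0.11 in TRβ1 cells (adjusted p = 0.0681).

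For TRβ1 against control, 1 of the 37 genes was called on vehicle (C6, higher) and 1 on T3 (C5, lower), where 0.735% of features (0.506% higher) and 0.871% (0.346% lower) were called. Directly against the TRα1 pool, the TRβ1 pool had 4 calls on vehicle (SERPING1, C1S, ITIH4 and HP) and 2 on T3 (C1S and SERPING1), all lower, where 0.540% (0.248% lower) and 0.604% (0.380% lower) of features were called. For each of these genes, this comparison and TRα1 minus control share the TRα1 arrays, so they are not independent.

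**Figure D4:**
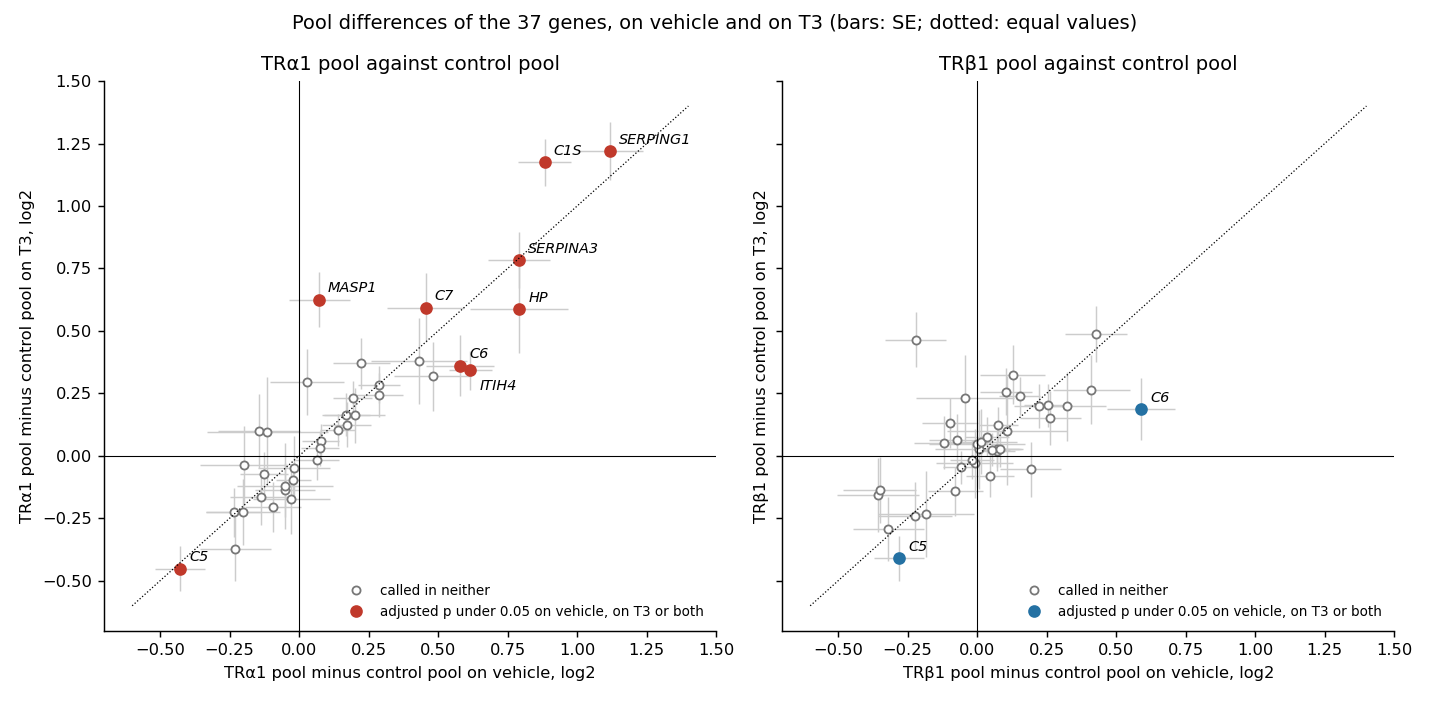
Difference from the control pool on vehicle (x axis) and on T3 (y axis), log2, for the 37 genes in the TRα1 and TRβ1 pools, with SE bars and a dotted line of equal values. Filled points were called on vehicle, on T3 or both. C1S and SERPING1 lie far to the upper right in the TRα1 pool and near the other genes in the TRβ1 pool.

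Across the 37 genes the difference between the TRα1 and control pools had the same sign on vehicle and on T3 for 34 genes, against 65.5% of features. It was higher in 6 of 6 pairs for 17 genes, against 7.38% of features, and lower in 6 of 6 for C5, CLU and LBP, against 6.17%. The median difference was 0.07 on vehicle and 0.10 on T3, beside 0.00 and 0.01 over all features. Genes that were higher in all 6 pairs without a call included C2, the convertase protease (0.29 ± 0.07 and 0.28 ± 0.07, adjusted p = 0.0670 and 0.0578), CFI, which inactivates C3b and C4b (0.29 ± 0.09 and 0.24 ± 0.09), and VTN (0.48 ± 0.14 and 0.32 ± 0.14). LBP, which carries bacterial lipopolysaccharide to CD14, differed by -0.23 and -0.37. C3 differed by 0.08 and 0.06, and the membrane regulators CD46 and CD55, which inactivate or dissociate convertases, by 0.06 and -0.02 and by -0.13 and -0.07. CRP, SAA1 and SAA2, the strongly induced acute phase reactants, were below the array median and differed by -0.14 and -0.17, -0.09 and -0.20, and -0.11 and 0.10, with no call. SAA1 and SAA2 are near-identical neighbours on chromosome 11 that also share a feature annotated to several genes, so their signals are not certain to be separate. C2, CFB and SAA2 each had further features, and using the mean of a gene's features changed no call. The dimmer C2 feature differed between TRα1 and control cells by 0.39 ± 0.18 on vehicle but by -0.36 ± 0.18 on T3, against the sign of the feature used, and was not called.

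Some cell type markers moved with the pools. The difference between TRα1 and control cells was -0.59 ± 0.08 (SE) on vehicle and -0.81 ± 0.08 on T3 for TTR, the plasma carrier transthyretin, and -0.64 ± 0.09 and -0.59 ± 0.09 for GPC3, a glypican of hepatocellular carcinoma. On T3 it was -0.37 ± 0.07 for AFP and -0.27 ± 0.07 for ALB. LYZ, a leukocyte marker, differed by -0.37 ± 0.08 and -0.47 ± 0.08, and PDGFRB, a stellate cell marker, by -0.38 ± 0.08 on T3. SPP1, among the cholangiocyte markers, differed by 0.94 ± 0.18 and 0.81 ± 0.18. All of these were called with the block, and GPC3 on both treatments and TTR on T3 also without it. In TRβ1 cells against control, GPC3 was called on both treatments, at -0.54 ± 0.09 and -0.62 ± 0.09, and SPP1 on vehicle, at 0.81 ± 0.18 (adjusted p = 0.0469). Against TRα1 cells, TTR was called in TRβ1 cells at 0.58 ± 0.08 on vehicle and 0.68 ± 0.08 on T3, and none of these TRβ1 calls passed without the block. Of the 14 hepatocyte markers, 4 were called lower in TRα1 than in control cells on T3 and 10 were not called. Their median difference was -0.04, and 7 lay above 0. On vehicle 2 were called lower and 12 were not called, with a median of -0.12 and 4 above 0. Over all features 1.02% on T3 and 0.686% on vehicle were called lower. The mean of the hepatocyte list ranged from 10.96 to 11.32 over all arrays. The part of these markers in the differences of the complement and acute phase genes was not tested.

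Without the block, 0.307% of features were called for TRα1 minus control on vehicle and 0.433% on T3, and 2 of the 37 genes in each (SERPING1 and ITIH4, then SERPING1 and C1S). The same fit called 0.131% of features for T3 in TRα1 cells, 0.0730% in TRβ1 cells and 0.423% for the mean of the pools, and 0, 0 and 2 of the 37 genes, the latter being MBL2 and MASP1. For TRβ1 minus control it called 0.117% on vehicle and 0.156% on T3, and for TRβ1 minus TRα1 0% and 0.0438%, with no complement or acute phase gene in these 4. Unadjusted p values under 0.05 in the unblocked fit numbered 2 of 37 genes for T3 in TRα1 cells and 2 in TRβ1 cells, against 2.55% and 2.22% of features. For those 4 pool comparisons they numbered 5, 2, 6 and 6, against 3.51%, 3.65%, 2.89% and 2.78% of features.

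Some of the genes varied more with the replicate number than with any treatment or pool. HP averaged 9.83 over the 6 arrays numbered 1, 7.78 over those numbered 2 and 8.54 over those numbered 3, a range of 2.05. The range of the number means was 1.47 for C4BPB, 1.20 for SERPINA3, 0.93 for CFI, 0.93 for CP, the copper carrier ceruloplasmin, and 0.88 for C8B. For HP, C4BPB, SERPINA3, CFI and C8B the arrays numbered 1 were the highest, while CP was highest in number 2 (9.29) and lowest in number 3 (8.36). The range passed 0.5, a limit set after the values were seen, for 12 of the 37 genes, against 16.2% of features. Number 1 was the highest of the 3 for 21 genes, and for 25.5% of features. By contrast SERPINA1, alpha-1-antitrypsin, spanned 0.19 over all 18 arrays. What the number stands for is stated only as a biological repeat, and the cause of these differences was not tested.

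**Figure D5:**
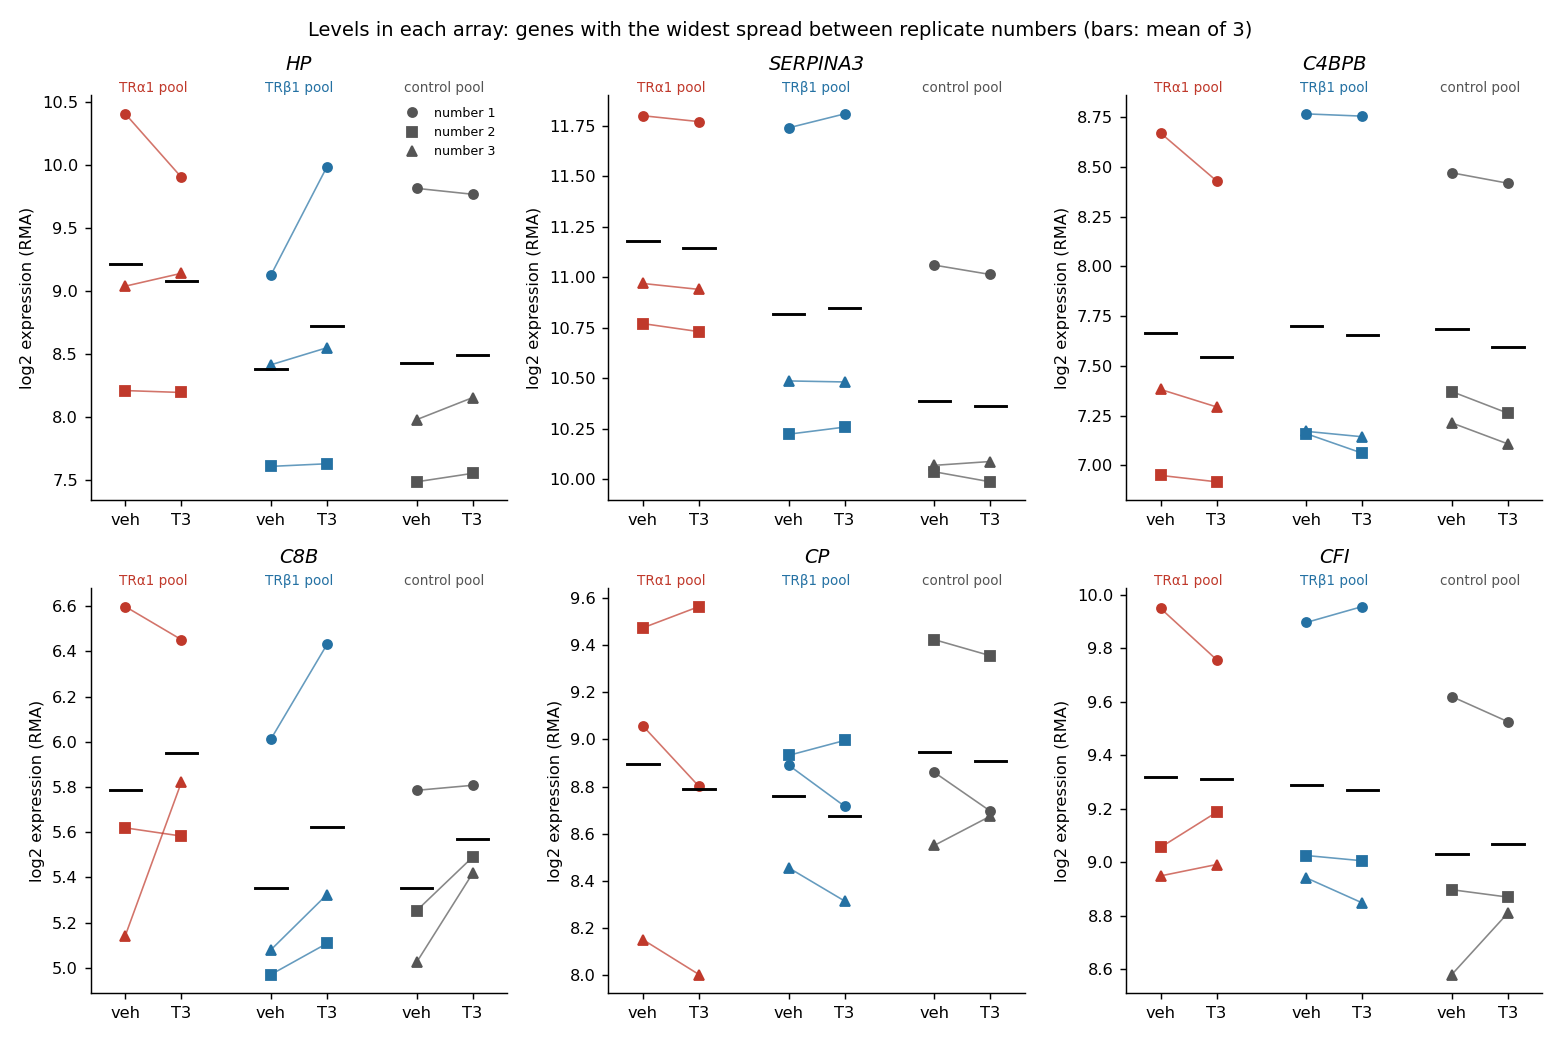
Log2 level of HP, SERPINA3, C4BPB, C8B, CP and CFI, the 6 genes with the widest range of number means, in each of the 18 arrays by pool and treatment. Point shapes mark the replicate number, lines join same-numbered arrays and bars are means of 3. The arrays numbered 1 form a separate upper band for C4BPB, SERPINA3 and CFI in all 3 pools.

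Other genes of these pathways were counted from lists. Of 26 further complement components and receptors, 24 were measured, and ITGB2, the beta chain of the complement receptors 3 and 4, was the only one called, above control in TRβ1 cells on vehicle (0.47 ± 0.08, SE) and on T3 (0.56 ± 0.08) and in TRα1 cells on T3 (0.40 ± 0.08), with unblocked adjusted p from 0.0757 to 0.268. In the same order, 0.506%, 0.526% and 1.82% of features were called higher. Of 28 other acute phase proteins 25 were measured, and for the mean T3 response 5 were higher and 1 was lower, where 1.36% of features were called higher and 0.331% lower. Without the block 2 of the 6 passed. CD14, the lipopolysaccharide co-receptor, rose by 0.70 ± 0.07 (adjusted p = 4.19e-05; unblocked adjusted p = 0.000508), HAMP, which encodes the iron hormone hepcidin, by 0.56 ± 0.07 (adjusted p = 0.000221; unblocked adjusted p = 1.0), and the fibrinogen chains FGA by 0.38 ± 0.05 (adjusted p = 0.000144; unblocked adjusted p = 0.00556) and FGG by 0.35 ± 0.06 (adjusted p = 0.0031; unblocked adjusted p = 0.725). The lower gene was IL1RN, the interleukin-1 receptor antagonist, at -0.23 ± 0.05 (adjusted p = 0.0359; unblocked adjusted p = 0.723). FGB, the third fibrinogen chain, rose by 0.26 ± 0.06 (adjusted p = 0.0490; unblocked adjusted p = 1.0). Between pools the calls went both ways. For TRα1 minus control, 1 gene was higher and 1 lower on vehicle, and 2 were higher and 3 lower on T3. Of all features 1.38% were called higher and 0.686% lower on vehicle, and 1.82% and 1.02% on T3. TTR and ALB, with the values above, and IL1RN (-0.37 ± 0.09, unblocked adjusted p = 0.650) were the lower genes of this list on T3. HAMP in TRβ1 cells on vehicle differed by -0.90 ± 0.12 from control and by -0.81 ± 0.12 from TRα1 cells, and its T3 response there was 0.79 ± 0.12. These HAMP differences share the TRβ1 vehicle arrays, and none passed without the block. HPX, haemopexin, a haem carrier, was above control by 1.39 ± 0.18 on vehicle and 1.21 ± 0.18 on T3 in TRα1 cells, and by 0.96 ± 0.18 and 0.87 ± 0.18 in TRβ1 cells, none of which passed without the block (unblocked adjusted p from 0.163 to 1.0).

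Of 51 genes of interleukin-6, interleukin-1 and STAT3 signalling 46 were measured, and 4 were higher for the mean T3 response with none lower, where 1.36% of features were called higher and 0.331% lower. CEBPB, a C/EBP factor that drives acute phase genes, rose by 0.62 ± 0.10 (adjusted p = 0.00189; unblocked adjusted p = 0.0749), TNFRSF1A, a receptor for tumour necrosis factor, by 0.36 ± 0.04 (adjusted p = 0.000237; unblocked adjusted p = 0.0218), CEBPA by 0.24 ± 0.05 (unblocked adjusted p = 0.202) and IL6R, the interleukin-6 receptor chain, by 0.20 ± 0.04 (unblocked adjusted p = 1.0). In TRα1 cells IL1R1, the signalling interleukin-1 receptor, was above control by 0.78 ± 0.10 on vehicle (adjusted p = 0.000398; unblocked adjusted p = 0.00552) and 0.62 ± 0.10 on T3 (adjusted p = 0.00183; unblocked adjusted p = 0.0241). IL1R2, the decoy receptor, was above by 0.63 ± 0.13 and 0.51 ± 0.13, and for IL1RAP, the shared co-receptor, the difference on T3 was -0.42 ± 0.08, none of which passed without the block (unblocked adjusted p from 0.414 to 1.0). For TRα1 minus control, 1.38% of features were called higher on vehicle, and 1.82% higher and 1.02% lower on T3.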

How the data were processed

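RNA (200 ng per sample) from 18 HepG2 samples was hybridised to Affymetrix Human Gene ST arrays. Per the submitters' processing notes, the authors ran RMA with R 2.7.1, and the deposited values are log2 expression per feature. The genome build and annotation were not given in the sources used here, and gene names come from the platform annotation. From these values limma 3.58.1 in R 4.3.3 (lmFit, eBayes; 6 groups, all 18 arrays, 1 residual variance per feature) gave 13 contrasts, two-sided, with Benjamini-Hochberg adjustment over 20546 features. The scripts were tested on simulated data.

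The main fit holds the replicate number as a block. The pairing comes from the data: 45 of 45 pairs of same-numbered arrays of different groups correlated above 0.1 after group means were removed (lowest 0.259, median 0.597; median -0.483 and highest 0.455 for different numbers), and all 18 arrays matched their own number best. The block was chosen knowing from earlier results that it gives more calls, so p-values of the fit without it stand beside each call. It lowered the median SE of a T3 difference from 0.157 to 0.107 and left 10 residual degrees of freedom in place of 12.

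The genes, lists and tests were chosen with earlier results of these data known. Named are called genes, the larger uncalled differences and, for other lists, up to 4 called genes per contrast. For the mean T3 response of the other acute phase proteins, all called genes are named. Others, such as C1R, C2, CFI, LBP, ITIH3, CD46, C3 and SERPINA1, were chosen after their values were seen. Arrays have no read depth, and 3 per group limits precision. Alternatives covered the block, the adjustment, filters, array weights, scaling, the variance prior, the arrays fitted, the choice of feature and leaving out arrays.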

Additional observations from a re-analysis of the deposited data

Results flagged for a closer look

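For 3 genes every pair of one pool moved one way on T3 and every pair of another pool the opposite way. In the linear model (limma with the replicate block) none of these differences passed. SERPING1 moved by 0.10 in TRβ1 cells and -0.09 in control cells, a difference of 0.20 (adjusted p = 1.0). C6 moved by -0.27 and 0.13 in the same pools, a difference of -0.40 (adjusted p = 1.0). ITIH4 moved by -0.18 in TRα1 cells, 0.13 in TRβ1 cells and 0.09 in control cells, differences of 0.31 for TRβ1 minus TRα1 and -0.27 for TRα1 minus control (both adjusted p = 1.0).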

How the results depend on the processing

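No called result of the 37 genes reversed under any alternative. Of 29 called results, 6 kept the call without the replicate block, 22 with adjustment over all 32321 features, 29 with array weights, 27 after a further quantile normalization, 27 after subtracting array medians, 28 with a trended and robust prior and 29 with the mean of a gene's features. With low features filtered out, 26 of the 26 that could be fitted kept it, and 8 of the 37 genes, C6 and C7 among them, were removed. With only the arrays of the groups compared, 9 of 26 kept it, and the mean over pools has no such fit because it uses all arrays. Without number 1, 2 or 3 as a whole, 15, 13 and 6 of 29 kept it.

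Counts of called genes that changed are given in full. For T3 in TRα1 cells the 2 became 0 with no replicate block, 4 with array weights and 0 with only the arrays compared. For T3 in TRβ1 cells the 2 became 0 with no replicate block and 0 with only the arrays compared. For the mean of pools the 3 became 2 with no replicate block. For TRα1 minus control, the 7 on vehicle became 2 with no replicate block, 5 over all features, 8 with the trended prior and 5 with only the arrays compared. The 7 on T3 became 2 with no replicate block, 5 over all features, 8 after the filter, 8 after quantile normalization, 8 with the trended prior, 11 with array weights and 3 with only the arrays compared. For TRβ1 minus control on vehicle the 1 became 0 with no replicate block, 0 over all features, 0 after the filter, 2 with the trended prior and 0 with only the arrays compared. On T3 the 1 became 0, 0, 3, 2 and 0 under the same settings and 0 with medians subtracted. For TRβ1 minus TRα1, the 4 on vehicle became 0 with no replicate block, 1 with only the arrays compared and 3 over all features, after quantile normalization, with medians subtracted or with the trended prior, and the 2 on T3 became 0, 5 with array weights and 0 with only the arrays compared. With arrays or a number left out, the counts ranged from 0 to 2 for T3 in the TRα1 and in TRβ1 cells, 0 to 1 in control cells and 2 to 3 for the mean. They ranged from 2 to 7 and 2 to 8 for TRα1 minus control on vehicle and T3, 0 to 1 on each for TRβ1 minus control, and 0 to 4 and 0 to 2 for TRβ1 minus TRα1. They were 0 throughout for differences between responses. Why settings differ was not tested, beyond fewer arrays or features in some. No scaling moved the median of all features by over 0.1.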
